A study of Mus musculus with 12 samples.

Results

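The genes described here encode the relay that carries a cytokine signal from its receptor to the nucleus. They are the Janus kinase genes *Jak1* and *Jak2*, the transcription factor genes *Stat3*, *Stat5a*, *Stat5b* and *Stat6*, and the inhibitor genes *Socs1*, *Socs2*, *Socs3* and *Cish*. They were taken by symbol, and each of the 10 had a row among the 52636 genes counted in both cell types. The RNA came from bone marrow cells of C57BL/6 J mice aged 8 to 12 weeks, enriched with magnetic kits. Neutrophils were kept for 4 h in RPMI with serum, with either 1 nM calcitonin gene-related peptide (CGRP), a neuropeptide of pain-sensing neurons, or saline (PBS). Monocytes spent 3 days in DMEM/F12 with serum and M-CSF (10 ng/ml), which turns them into macrophages (monocytes/macrophages in the sample labels, macrophages below), before 4 h in fresh medium with 1 nM CGRP or with PBS. Each of the 4 groups had 3 libraries, and the sources used here do not say whether these came from separate mice, so that p-values measure the spread between the libraries, which may be technical. Library totals ran from 2719556 to 3631989 counts for PBS neutrophils, from 2196558 to 3270388 for CGRP neutrophils, from 2536415 to 3477069 for PBS macrophages and from 2002559 to 3259073 for CGRP macrophages. All 13 neutrophil markers were higher in the neutrophils (PBS groups, called), their sum being 159000 to 238000 CPM there and 304 to 446 CPM in macrophages. The 12 macrophage and monocyte markers summed to 34700 to 49800 CPM in macrophages and to 4030 to 5330 CPM in neutrophils. With PBS, 10 of the 12 were higher in macrophages, while *Ly6c2*, a monocyte gene, was at 31.2 CPM there and 2690 CPM in neutrophils, and *Ccr2* was at 283 and 315 CPM.

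The cytokine receptors that work through JAKs have no kinase of their own. When a ligand joins the receptor chains, the JAKs bound to their tails phosphorylate each other and the receptor, STAT proteins dock there and are phosphorylated in turn, and STAT dimers enter the nucleus and bind DNA. SOCS proteins and CISH are encoded by genes that STATs switch on, and they block the receptor or the kinase, which closes a negative feedback loop. In myeloid cells STAT3 serves the gp130 cytokines, IL-10 and G-CSF, the STAT5 proteins serve GM-CSF and IL-3, and STAT6 serves IL-4 and IL-13. The RNA counts below show how much transcript each gene had, and phosphorylation of the proteins was not measured.

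*Stat3*, *Stat5a* and *Stat5b* lie side by side on chromosome 11 of the GRCm38 build, *Stat5b* at 100780731 to 100850724 on the minus strand, *Stat5a* at 100859351 to 100885169 on the plus strand and *Stat3* at 100885098 to 100939540 on the minus strand. *Stat3* and *Stat5a* point towards each other and share 72 bases at their 3′ ends, in exons of both and in the coding part of neither. Reverse transcription started from an oligo-dT primer, so that reads fell near the 3′ end of each gene, and the strand setting of the counting is not given in the sources used here. Over whole transcripts, 21.7% of the 31-base sequences of *Stat5a* occur in *Stat5b* too, but over the last 500 bases none does. *Cish* (chromosome 9, 107296026 to 107302784, plus strand) overlaps a listed antisense gene and a pseudogene, both on the opposite strand, whose highest count in any library was 1. The other members are *Jak1* (chromosome 4, 101152367 to 101265282, minus strand), *Jak2* (chromosome 19, 29251828 to 29313080, plus strand), *Stat6* (chromosome 10, 127642986 to 127660957, plus strand), *Socs2* (chromosome 10, 95385362 to 95417180, minus strand), *Socs1* (chromosome 16, 10782240 to 10785536, minus strand) and *Socs3* (chromosome 11, 117966079 to 117970047, minus strand).

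The promoters of 3 members are shown because of their place in the results: *Stat3* is the member whose transcript rose with CGRP in macrophages, *Cish* is the inhibitor with the largest count ratio there, and *Jak1* is the one member with a full cAMP response element. CGRP acts through a receptor that raises cAMP, and CREB, a factor activated by cAMP, binds TGACGTCA or its part TGACG, while STAT dimers bind TTCNNNGAA and STAT6 also a form with a spacer longer by 1 base. Each sequence runs 5′ to 3′ from 250 bases before the RefSeq start site to 30 bases after it (GRCm38.p6), and capitals mark matches to these motifs on either strand (TGACG lies within TGACGTCA).
Stat3 (chr11:100939511-100939790, minus strand): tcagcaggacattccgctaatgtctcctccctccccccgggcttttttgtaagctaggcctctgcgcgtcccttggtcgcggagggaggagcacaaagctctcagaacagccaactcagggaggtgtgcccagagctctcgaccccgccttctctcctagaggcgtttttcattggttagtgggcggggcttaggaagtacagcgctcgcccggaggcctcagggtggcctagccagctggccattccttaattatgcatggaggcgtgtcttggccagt
Cish (chr9:107296409-107296688, plus strand): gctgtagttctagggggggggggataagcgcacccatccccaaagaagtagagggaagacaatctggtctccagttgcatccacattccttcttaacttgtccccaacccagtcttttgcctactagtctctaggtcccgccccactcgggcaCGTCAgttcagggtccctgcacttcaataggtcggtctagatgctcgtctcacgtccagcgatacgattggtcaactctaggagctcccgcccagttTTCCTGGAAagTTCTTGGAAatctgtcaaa
Jak1 (chr4:101265194-101265473, minus strand): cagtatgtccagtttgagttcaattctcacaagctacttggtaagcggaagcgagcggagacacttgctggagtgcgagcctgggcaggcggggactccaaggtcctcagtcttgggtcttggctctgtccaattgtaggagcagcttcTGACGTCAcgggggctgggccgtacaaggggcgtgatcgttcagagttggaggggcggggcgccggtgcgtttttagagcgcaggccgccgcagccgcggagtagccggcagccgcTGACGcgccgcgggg
The *Stat3* window holds none of these motifs. In the *Cish* window, TTCCTGGAA begins at base 1 of the transcript and TTCTTGGAA at base 12, and CGTCA, which is TGACG on the other strand, begins 97 bases before the start. The *Jak1* window holds TGACGTCA 101 bases before the start and TGACG from base 16 of the transcript. Windows of 250 bases before to 50 after the start were found for 9 members (11 windows, since some genes have more than 1 listed start), and none for *Socs2*. TTCNNNGAA was present for *Cish* and *Socs3* and in 8.29% of all 32817 promoters, the STAT6 form for no member and in 6.94%, TGACGTCA for *Jak1* only among the members and in 1.79%, and TGACG for *Cish*, *Jak1*, *Stat5a* and *Stat6* and in 20.8%. A match is a description of letters and not of a bound site.

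In macrophages, CGRP raised *Stat3*, and none of the other 6 members that could be tested passed the threshold. CGRP was compared with PBS by limma-voom within each cell type, and a gene was called at a Benjamini–Hochberg adjusted p under 0.05 over all genes tested. In macrophages 698 of 9393 genes were called, or 7.43% (3.46% higher with CGRP), against 1 of 7 members, and 2 of the 7 had an unadjusted p under 0.05, as did 19.8% of all genes. The median log2 fold change of the 7 members was 0.12, and that of all genes tested was 0.0047. The groups of libraries did not overlap for 2 of the 7 (*Stat3* and *Jak2*, both higher), as for 24.2% of all genes (11.9% higher). *Socs1*, *Socs3* and *Cish* had too few counts in macrophages to be tested. In bulk RNA, fewer cells of a type and less RNA per cell cannot be told apart.

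*Stat3* had 353, 274 and 344 counts in the PBS macrophages and 518, 496 and 428 with CGRP. As CPM, the count relative to the library's total after TMM scaling over the 12 libraries, these were 101, 81.8 and 123 with PBS and 162, 183 and 215 with CGRP, a mean of 102 ± 20.7 against 186 ± 26.6 CPM (SD, n = 3 each). Every CGRP library lay above every PBS library. The log2 fold change was 0.88 (SE 0.16, 95% interval 0.54 to 1.23, limma-voom adjusted p = 0.00246), a 1.84-fold rise, and *Stat3* ranked 214 of 9393 genes by p. It was called without any single library as well, in all 6 such fits, with a log2 fold change between 0.73 and 1.03, and in each of 10 other ways of fitting.

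**Figure D1:**
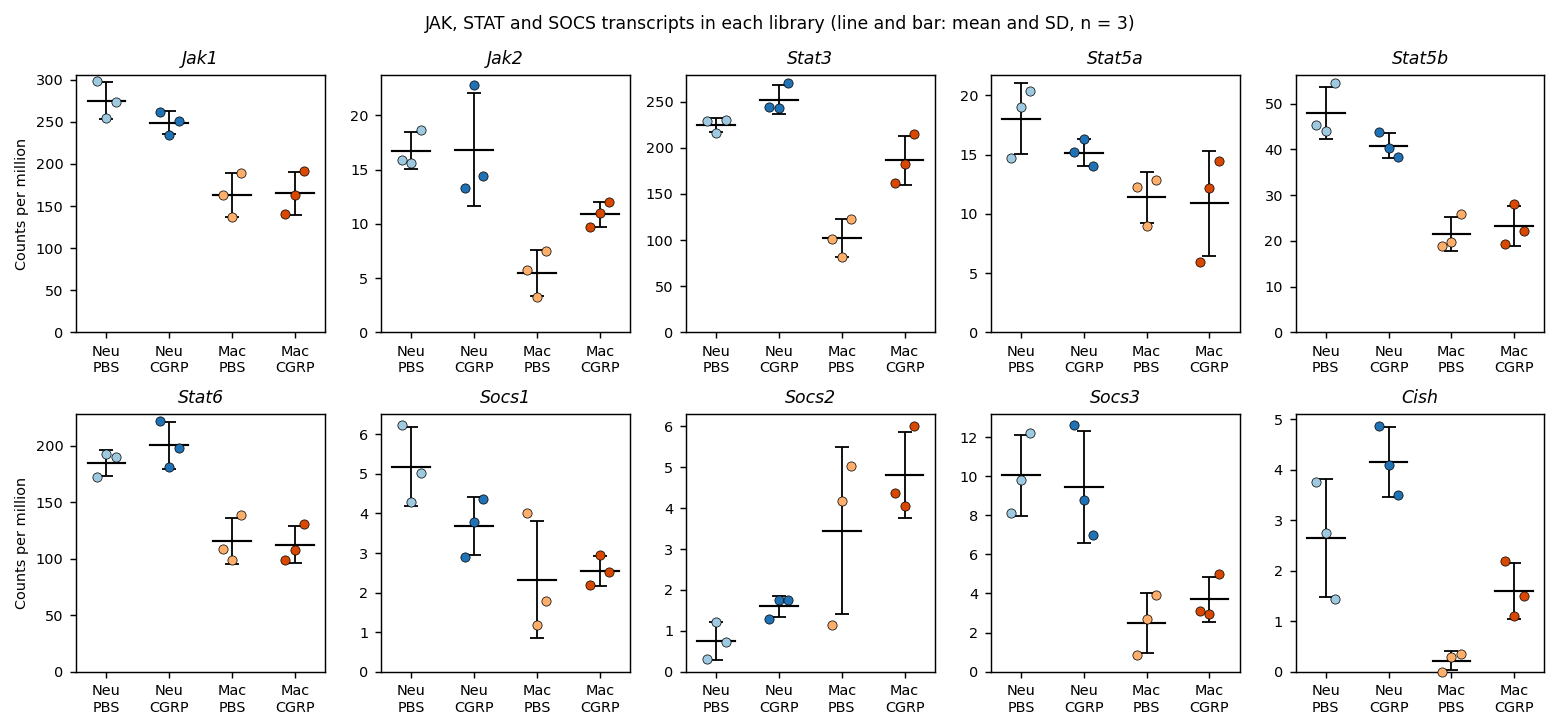
Level of each member in every library, in CPM on a separate linear axis for each gene, with the mean (line) and SD (bar) of 3 libraries. *Stat3* in macrophages goes from 81.8 to 123 with PBS to 162 to 215 with CGRP, while *Stat6* and *Jak1* overlap between the same groups.

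*Stat6* served as a reference inside each library, as did *Jak1* and *Stat5b*, all of them chosen after seeing the data. The ratio of *Stat3* to *Stat6* counts was 0.924, 0.825 and 0.887 in the PBS macrophages and 1.64, 1.70 and 1.63 with CGRP. Within each group the ratio varied little, with SDs of 0.05 and 0.036, and the mean rose from 0.879 to 1.66, a log2 difference of 0.92. The neutrophil ratios were 1.33, 1.12 and 1.21 with PBS and 1.10, 1.34 and 1.36 with CGRP, which overlap, with a log2 difference of 0.05. With *Jak1* as the reference, the macrophage ratios were 0.618, 0.6 and 0.652 with PBS and 1.14, 1.12 and 1.12 with CGRP, and the neutrophil ratios were 0.766, 0.851 and 0.84 with PBS and 0.933, 1.04 and 1.07 with CGRP. With *Stat5b* as the reference, they were 5.35, 4.15 and 4.78 against 8.35, 6.53 and 9.73 in macrophages, and 5.05, 4.9 and 4.21 against 5.59, 6.03 and 7.02 in neutrophils. The macrophage groups were thus apart with each of the 3 references, while the neutrophil groups overlapped with *Stat6* and lay apart, higher with CGRP, with *Jak1* (a log2 difference of 0.31) and *Stat5b* (0.39). A ratio of counts of 2 genes depends on their lengths and 3′ ends and is not a ratio of molecules, and no scaling of the libraries enters it.

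**Figure D2:**
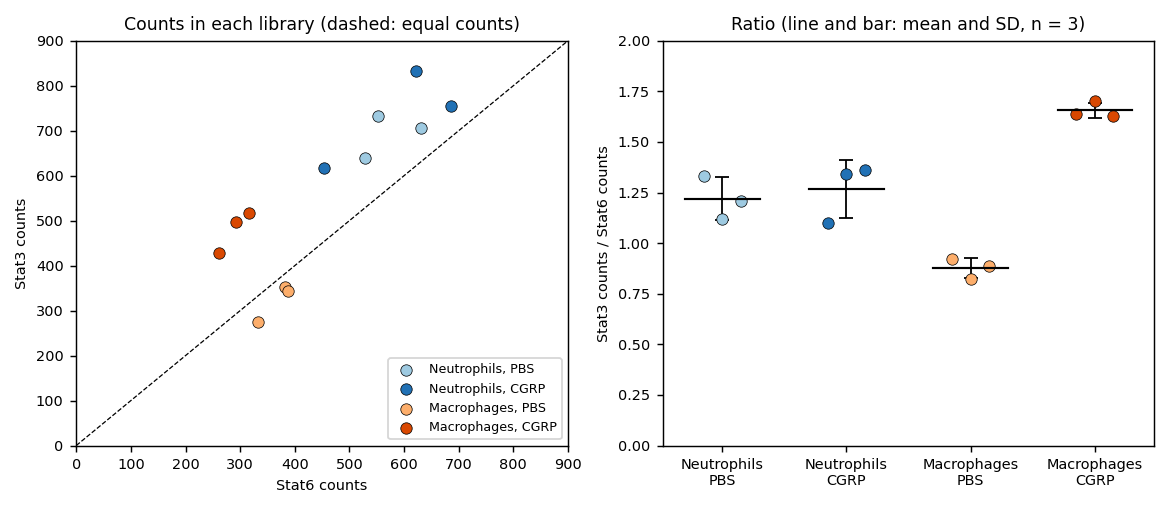
Left, counts of *Stat3* against counts of *Stat6* in each of the 12 libraries, with a dashed line of equal counts. Right, their ratio with mean (line) and SD (bar, n = 3), where the CGRP macrophages (1.63 to 1.70) lie above all other libraries and the PBS macrophages (0.825 to 0.924) below them.

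Markers of other cells were read in the same macrophage libraries. The 13 neutrophil markers, led by *S100a8*, summed to 338, 397 and 304 CPM with PBS and to 446, 424 and 423 CPM with CGRP, which is 0.15% to 0.23% of their level in PBS neutrophils. Neutrophil RNA at that share would carry 0.35 to 0.51 CPM of *Stat3*. The 12 macrophage and monocyte markers, led by *Apoe*, summed to 34700, 38800 and 34900 CPM with PBS and to 43000, 46800 and 49800 CPM with CGRP, so that the groups did not overlap; *Apoe* rose and *Ccr2* fell by the test. The 5 platelet and megakaryocyte markers, nearly all *Pf4*, summed to 631, 973 and 676 CPM with PBS and to 957, 780 and 629 CPM with CGRP, and the 6 dendritic cell markers, led by *Bst2*, to 150 to 194 CPM with PBS and 173 to 190 CPM with CGRP. Both sums were higher than in neutrophils (125 to 188 and 47.3 to 62.7 CPM), through *Pf4* and *Bst2*. They overlapped between the PBS and CGRP macrophages. With PBS, 2 of the 3 platelet markers tested and 3 of the 4 dendritic cell markers tested were called higher in neutrophils. The part of any of these markers in the rise of *Stat3* was not tested.

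*Jak2*, the kinase of the GM-CSF, IL-3 and interferon-γ receptors, had 20, 11 and 21 counts in the PBS macrophages and 31, 30 and 24 with CGRP, or 5.51 ± 2.13 against 10.9 ± 1.18 CPM. Each CGRP library was above each PBS library, yet the difference did not pass the threshold (log2 fold change 1.05, SE 0.33, 95% interval 0.35 to 1.76, limma-voom adjusted p = 0.0671). It was called in 2 of 10 other fits, with library quality weights and in a single fit over both cell types, and in 1 of 6 fits without a library, that without PBS replicate 3 (adjusted p = 0.0452 by limma-voom). *Jak1*, the kinase of the gp130 and IL-4 receptors and the partner of JAK2 at the interferon-γ receptor, had 571, 457 and 528 counts with PBS and 453, 443 and 383 with CGRP. Its CPM values, 137 to 189 with PBS and 141 to 192 with CGRP, covered nearly the same range, with a log2 fold change of 0.02 (95% interval -0.30 to 0.35).

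Among the other STATs, *Stat6* was at 109, 99.2 and 139 CPM with PBS and at 98.7, 108 and 131 CPM with CGRP, and its log2 fold change was -0.04 (95% interval -0.38 to 0.30). *Stat5b* had a log2 fold change of 0.12 (SE 0.22) and *Stat5a* of -0.20 (SE 0.32), with overlapping groups for both. With the counts of this closely related pair added, the log2 fold change was 0.03 (95% interval -0.41 to 0.47, limma-voom adjusted p = 0.964). The estimate of *Stat3* lies above the intervals of *Jak1*, *Stat6*, *Stat5b* and the summed pair, but within those of *Jak2* and *Socs2*. *Socs2* had 4, 14 and 14 counts with PBS and 14, 11 and 12 with CGRP (log2 fold change 0.71, 95% interval -0.34 to 1.76).

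*Cish* was close to the limit of detection in macrophages: 0, 1 and 1 counts with PBS, at or under the floor of 3 counts (0.826 to 1.5 CPM over the libraries), and 7, 3 and 3 with CGRP. Summed over the libraries, 2 of 9392552 counts stood against 13 of 7954490, a ratio of 7.68 with an exact 95% interval of 1.74 to 70.1 that covers counting error only. It was too low for the main fit. With no filter on low counts it was called (limma-voom adjusted p = 0.0291), and so it was in the single fit over both cell types (adjusted p = 0.02 by limma-voom). *Socs3*, the inhibitor of gp130 and G-CSF receptors, had 3, 9 and 11 counts with PBS and 10, 8 and 10 with CGRP, and *Socs1*, which blocks the JAKs themselves, had 14, 4 and 5 against 7, 8 and 5. For both, the groups overlapped at these few counts, and no difference was detectable at this depth.

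In neutrophils none of the 9 members tested was called. The background was 248 of 9819 genes, or 2.53%. None of the 9 reached an unadjusted p under 0.05 either, which 12.8% of all genes did, and edgeR and DESeq2 called none. The median log2 fold change of the 9 was -0.05, beside 8e-04 for all genes, and the groups did not overlap for 2 of them (*Stat3* higher, *Stat5b* lower), as for 17.7% of all genes (9.06% higher and 8.65% lower).

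*Stat3* was at 229, 216 and 230 CPM in the PBS neutrophils and at 244, 243 and 270 with CGRP, a mean of 225 ± 7.68 against 252 ± 15.1 CPM (SD, n = 3 each). The CGRP libraries were all above the PBS libraries, by a log2 fold change of 0.18 (SE 0.09, limma-voom adjusted p = 0.4). *Stat5b* was at 45.3, 44.0 and 54.5 CPM with PBS and 43.7, 40.3 and 38.4 with CGRP (log2 fold change -0.20, SE 0.13, limma-voom adjusted p = 0.589). *Stat6* (0.12, SE 0.09), *Stat5a* (-0.20, SE 0.20), *Jak1* (-0.13, SE 0.09) and *Jak2* (0.02, SE 0.22) had overlapping groups. The upper ends of the 95% intervals were 0.35 for *Stat3*, 0.31 for *Stat6*, 0.48 for *Jak2* and 0.05 for *Jak1*, on the log2 scale.

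The inhibitors were sparsely counted in neutrophils too. *Cish* had 12, 9 and 4 counts with PBS and 15, 14 and 8 with CGRP, and its log2 fold change of 0.70 had a 95% interval from -0.16 to 1.57 (limma-voom adjusted p = 0.524). *Socs1* had 20, 14 and 14 against 9, 13 and 10 counts (-0.48, SE 0.36), and *Socs3* had 26, 32 and 34 against 39, 30 and 16 (-0.05, SE 0.27). The groups overlapped for all 3 in CPM. *Socs2*, at 1, 4 and 2 counts with PBS and 4, 6 and 4 with CGRP, was too low for the fit, and its PBS libraries summed to 7 counts.

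**Figure D3:**
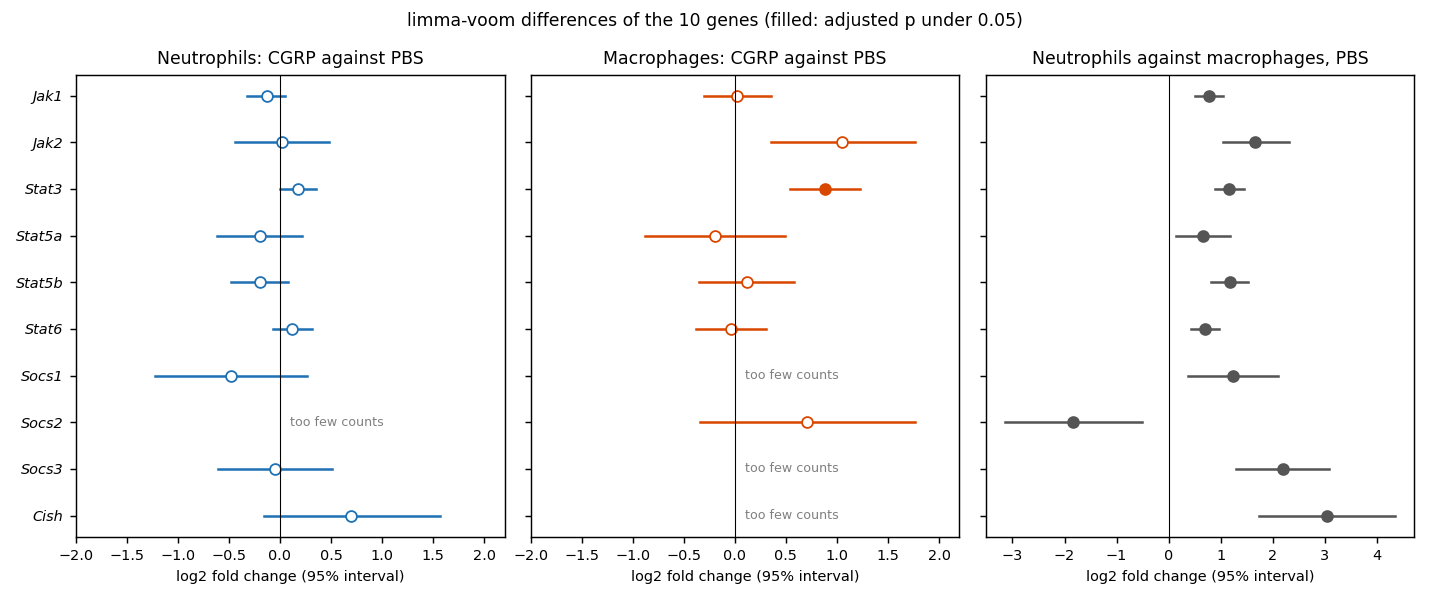
limma-voom log2 fold changes of the members with 95% intervals for CGRP against PBS in neutrophils (left) and macrophages (middle) and for neutrophils against macrophages with PBS (right, on a wider axis). Filled points have an adjusted p under 0.05: *Stat3* (0.88) in macrophages, none in neutrophils, and all 10 between the cell types.

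An interaction fitted over the 12 libraries tested whether the effect of CGRP differed between neutrophils and macrophages, and 2.36% of 10694 genes were called in it. *Stat3* was the single member called, its log2 fold change being 0.72 greater in macrophages (SE 0.18, 95% interval 0.33 to 1.10, limma-voom adjusted p = 0.0385). This call was close to the threshold, and it was kept in 6 of 9 other fits and in 2 of the 12 fits that leave out a library (without PBS macrophage replicate 3 and without CGRP macrophage replicate 1). Without any other of the 12 the adjusted p was between 0.0576 and 0.123 by limma-voom, with a difference between 0.56 and 0.75. Over all 12 such fits the difference stayed between 0.56 and 0.85. For *Jak2* the difference was 1.05 (SE 0.40, adjusted p = 0.228 by limma-voom) and for *Cish* 1.75 (SE 0.80, adjusted p = 0.339 by limma-voom). The other 7 members lay between -0.36 (*Socs2*, SE 0.82) and 0.81 (*Socs3*, SE 0.60), with adjusted p from 0.641 upward, and the median of the 10 was 0.53 beside 0.02 for all genes. An unadjusted p under 0.05 was reached by 3 of the 10 (*Stat3*, *Jak2* and *Cish*), as by 13.2% of all genes.

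With PBS alone, 9 of the 10 members had higher levels in neutrophils than in macrophages and *Socs2* had a lower one, and all 10 were called. This is a contrast in which 67.9% of all genes were called, 35.4% higher and 32.5% lower in neutrophils. The median log2 difference of the members was 1.2, and that of all genes 0.035. The groups did not overlap for any of the 9 higher members, as for 36.4% of all genes (70.4% in either direction). *Socs1*, *Socs3* and *Cish* were too low for the macrophage fit and *Socs2* for the neutrophil fit. They passed the filter on low counts through the cell type where they were higher. For these genes the filter itself favoured the direction seen, which enters the counts and the median above. The other 6 members were called with 10 counts required in every library. The cell types also differed in the 3 days of culture, the medium and M-CSF, and cell type and culture cannot be told apart. Markers of other cells differed with this contrast. The PBS neutrophils held 5560 to 7150 CPM of erythroid markers, led by *Hbb-bs*, against 19.3 to 24.2 CPM in the PBS macrophages, 1300 to 1550 against 13.7 to 16.1 CPM of basophil and mast cell markers, and 570 to 643 against 9.67 to 12.3 CPM of eosinophil markers, led by *Prg2*. The sum of the platelet and megakaryocyte markers went the other way, at 162 to 165 against 631 to 973 CPM. In macrophages it was nearly all *Pf4*, and 2 of the 3 markers tested were called higher in neutrophils. The part of all these markers in the members' values was not tested.

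Among the kinases, *Jak1* was 0.77 (SE 0.13) and *Jak2* 1.67 (SE 0.31) higher in neutrophils on the log2 scale, *Jak2* being at 15.9, 15.6 and 18.7 CPM against 5.72, 3.29 and 7.52 CPM. The STATs differed by 1.17 (*Stat3*, SE 0.13), 1.18 (*Stat5b*, SE 0.17), 0.70 (*Stat6*, SE 0.13) and 0.67 (*Stat5a*, SE 0.25). Of the inhibitors, *Socs3* was at 8.12, 9.78 and 12.2 CPM in neutrophils and 0.858, 2.69 and 3.94 CPM in macrophages, a difference of 2.19 (SE 0.44). *Cish* had 25 counts in neutrophils and 2 in macrophages, a ratio of 12.2 per total count (exact 95% interval 3.03 to 106, counting error only), and *Socs1* was 1.24 (SE 0.42) higher. *Socs2*, an inhibitor of growth hormone signalling, went the other way, at 0.312, 1.22 and 0.717 CPM in neutrophils and 1.14, 4.18 and 5.02 CPM in macrophages (-1.83, SE 0.63), and its groups overlapped. Leaving out a library ended the call of *Stat5a* (PBS neutrophil replicate 2 or 3 or PBS macrophage replicate 2, limma-voom adjusted p from 0.0672 to 0.119), of *Socs1* (PBS macrophage replicate 2, adjusted p = 0.103) and of *Socs2* (PBS neutrophil replicate 1 or PBS macrophage replicate 2 or 3, adjusted p from 0.0518 to 0.0851). The call of *Stat5a* was also lost in 3 of 9 other fits, with library totals, with no filter and with thinned libraries (limma-voom adjusted p up to 0.119), and that of *Socs2* in 1 of 8, with quality weights (adjusted p = 0.0537).

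The 4 group means of *Stat3* ran from 252 CPM in CGRP neutrophils and 225 CPM in PBS neutrophils to 186 CPM in CGRP macrophages and 102 CPM in PBS macrophages. No neighbours in this order overlapped, although the lowest PBS neutrophil library (216) and the highest CGRP macrophage library (215) nearly met. For *Jak2* the CGRP macrophages (9.68 to 12 CPM) stood between the PBS macrophages (3.29 to 7.52 CPM) and the neutrophils (13.3 to 22.8 CPM), and the 2 neutrophil groups overlapped. The order for *Cish* was CGRP neutrophils (3.49 to 4.86 CPM), PBS neutrophils (1.43 to 3.75 CPM), CGRP macrophages (1.10 to 2.19 CPM) and PBS macrophages (0 to 0.358 CPM), where the first 3 overlapped their neighbours in turn and the PBS macrophages lay below.

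The genes whose pattern over the 12 libraries was most like that of *Stat3*, after each cell type was centred on its own mean log2 CPM, were *Fam110a* (Pearson r = 0.98), *Sgms2* (0.98) and *Junb* (0.97), out of 8635 genes. These libraries share their treatment groups and depth, and the correlation is a description. The genes were picked in the libraries that also give their response to CGRP, so that a rise like that of *Stat3* is no separate result. *Sgms2*, a sphingomyelin synthase, rose in both cell types, by 2.18 in macrophages (limma-voom adjusted p = 0.0044) and 0.67 in neutrophils (adjusted p = 0.000244 by limma-voom). *Fam110a* rose by 1.25 in macrophages (limma-voom adjusted p = 0.0101) and was not called in neutrophils (0.3, adjusted p = 0.362 by limma-voom).

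The rest of the family was read from a list of 8 further JAK, STAT and SOCS genes, of which 7 could be tested. *Stat4*, the STAT of IL-12 and of type I interferon, was called in each cell type, and it was the single one called, where 7.43% of all genes were called in macrophages and 2.53% in neutrophils. In macrophages it went from 0, 2 and 4 counts to 28, 29 and 9 counts, or 0.677 ± 0.72 to 7.98 ± 3.15 CPM (log2 fold change 3.87, SE 0.67, limma-voom adjusted p = 0.00154). With so few PBS counts the size of this rise moved when 1 library was left out, from 2.93 without PBS replicate 1 (adjusted p = 0.041 by limma-voom) to 4.64 without PBS replicate 3, and the call was kept in all 6 such fits. In neutrophils it was at 29.4 ± 3.26 CPM with PBS and 44.8 ± 5.59 CPM with CGRP (0.64, SE 0.15, adjusted p = 0.0207 by limma-voom), a call lost without PBS or CGRP replicate 1 or 2 (adjusted p from 0.0542 to 0.15 by limma-voom) and in 2 of 10 other fits, with thinned libraries and in the single fit over 12 libraries (adjusted p up to 0.158 by limma-voom). The interaction was 3.27 (SE 0.70, adjusted p = 0.0096 by limma-voom, 0.0995 without PBS macrophage replicate 1, whose count was 0, and up to 0.0581 in 8 other fits, of which 7 kept the call). The neutrophil libraries also held basophil transcripts, whose 7 markers summed to 1300 to 1550 CPM with PBS and to 1910 to 2150 CPM with CGRP. The rise of the sum lay in *Hdc* (357 and 938 CPM), the single one of the 7 called. The next most counted, *Prss34* (627 and 633 CPM) and *Mcpt8* (423 and 384 CPM), did not rise with it. The part of basophil transcripts in the neutrophil values was not tested. *Socs6*, the most counted of this list in macrophages, had log2 fold changes of -0.28 (SE 0.20) in neutrophils and -0.46 (SE 0.19) in macrophages, neither called.

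Of 34 receptor chains that signal through JAKs, 20 were tested in each cell type. In macrophages 3 rose and 1 fell, where 7.43% of all genes were called, with a median log2 fold change of 0.21 beside 0.0047 for all genes. In neutrophils none was called by limma-voom, edgeR or DESeq2 (3 of the 20 had an unadjusted p under 0.05, as did 12.8% of all genes), and the median was 0.10 beside 8e-04. *Csf2rb*, the signalling chain shared by the GM-CSF, IL-3 and IL-5 receptors, rose from 110 ± 26.4 to 380 ± 61.0 CPM (1.81, SE 0.17, limma-voom adjusted p = 3.59e-06). Its neighbour and near copy *Csf2rb2*, the IL-3 receptor chain of mice, rose by 1.57 (SE 0.18). The 2 transcripts share 28.0% of the 31-base sequences of *Csf2rb* over their length and 1.28% over the last 500 bases, so that reads near the 3′ end mostly tell them apart. *Ifngr1*, the interferon-γ receptor, rose from 325 ± 16.5 to 624 ± 23.8 CPM (0.95, SE 0.12). *Il6st*, which encodes gp130, the receptor chain through which IL-6 and oncostatin M reach STAT3, fell by 0.86 (SE 0.19), from 61.8 ± 9.35 to 33.2 ± 5.33 CPM, a call lost without PBS replicate 1 or CGRP replicate 2 (adjusted p up to 0.058 by limma-voom). *Csf2ra*, the most counted receptor chain in both cell types, was not called in either (0.05, SE 0.08 in neutrophils, and 0.15, SE 0.12 in macrophages). In neutrophils *Csf2rb* had a log2 fold change of 0.13 (SE 0.09), *Ifngr1* of 0.06 (SE 0.08) and *Il6st* of -0.33 (SE 0.18). The effect was larger in macrophages for *Csf2rb* (interaction 1.69, limma-voom adjusted p = 1.26e-05) and *Ifngr1* (0.90, adjusted p = 0.000235), while for *Il6st* the difference between the cell types did not pass (-0.52, SE 0.26, adjusted p = 0.409 by limma-voom).

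Most of the 28 ligand genes were hardly counted, and 5 could be tested in neutrophils, where none was called by limma-voom, edgeR or DESeq2 (1 had an unadjusted p under 0.05, as did 12.8% of all genes, of which 2.53% were called). In macrophages, where 7.43% of all genes were called, 3 could be tested. *Osm*, which encodes oncostatin M, a gp130 cytokine, rose in macrophages from 13, 9 and 7 counts to 39, 25 and 21 (1.80, SE 0.35, limma-voom adjusted p = 0.00407). In neutrophils its libraries also did not overlap, at 19.0 to 24.0 CPM and 28.3 to 30.5 CPM, but the gene was not called (0.50, SE 0.16, adjusted p = 0.139 by limma-voom). *Ebi3*, the most counted ligand gene and a subunit of IL-27, was not called in either cell type (0.06, SE 0.09, and 0.25, SE 0.17). *Il6* had no count in any macrophage library.

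Of 12 inhibitors outside the SOCS family, 1 was called, and in both cell types, where 7.43% (macrophages) and 2.53% (neutrophils) of all genes were called. *Ptpn6*, which encodes SHP-1, a phosphatase that removes phosphate from JAKs and their receptors, had 898, 845 and 621 counts in the PBS macrophages and 395, 329 and 213 with CGRP. It fell there by 1.05 (SE 0.13, limma-voom adjusted p = 8.37e-05), from 244 ± 18.7 to 117 ± 8.98 CPM. In neutrophils it fell by 0.42 (SE 0.08, limma-voom adjusted p = 0.00499), from 586 ± 42.6 to 435 ± 27.3 CPM, a call lost without PBS replicate 1 (adjusted p = 0.0825 by limma-voom). The groups did not overlap in either cell type, and the fall was larger in macrophages (interaction -0.62, SE 0.15, adjusted p = 0.0269 by limma-voom). That last call was kept in 6 of 12 fits without a library, and the adjusted p was at most 0.0896 in the others (without PBS neutrophil replicate 2 or 3, CGRP neutrophil replicate 1, PBS macrophage replicate 1 or CGRP macrophage replicate 2 or 3). *Ptpn1*, the phosphatase PTP1B and the most counted inhibitor in macrophages, was not called (-0.11, SE 0.20 there, and 0.15, SE 0.10 in neutrophils).

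**Figure D4:**
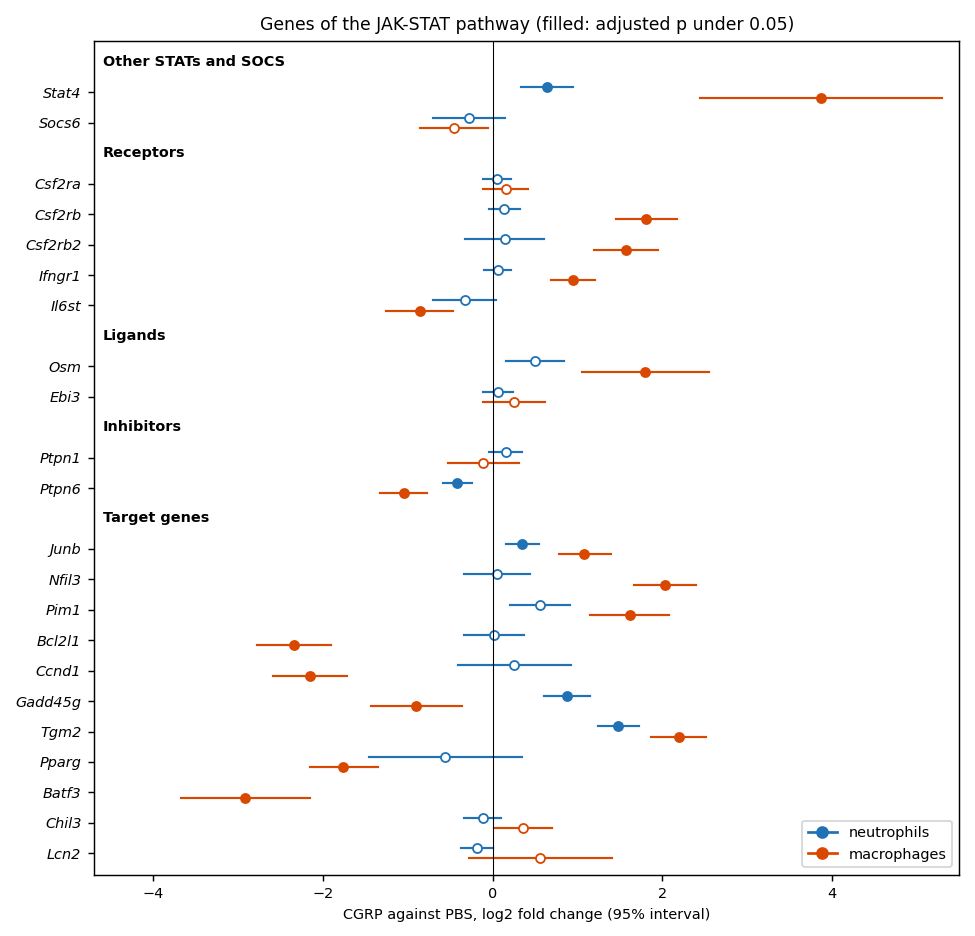
log2 fold changes of CGRP against PBS with 95% intervals for the named genes around the members, in neutrophils (blue) and macrophages (orange), with filled points for an adjusted p under 0.05. *Ptpn6* is called lower and *Stat4*, *Junb* and *Tgm2* higher in both cell types, and *Gadd45g* is called in opposite directions; *Batf3* was tested in macrophages only.

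Genes known as STAT targets were called in both directions in macrophages. Beside the counts that follow stand the 7.43% of all genes called in macrophages and 2.53% in neutrophils, with medians over all genes of 0.0047 and 8e-04. Of 17 genes listed as STAT3 targets, all tested in both cell types, 5 rose and 4 fell in macrophages (median log2 fold change 0.49), and 1 rose in neutrophils (median 0.044). *Nfil3*, a transcription factor gene, rose in macrophages by 2.03 (SE 0.17) and *Junb*, an AP-1 gene, by 1.08 (SE 0.14), while *Bcl2l1*, which encodes the survival protein BCL-XL, fell by 2.34 (SE 0.20) and *Ccnd1*, which encodes cyclin D1, by 2.15 (SE 0.20). *Ccnd1* shares all of the last 500 bases of its longest transcript with *LTO1* on the opposite strand, which had a log2 fold change of 0.12 (SE 0.27), and the exons of *Junb* and *Prdx2* overlap by 173 bases, *Prdx2* having 0.23 (SE 0.15). In neutrophils *Junb* rose by 0.35 (SE 0.09, limma-voom adjusted p = 0.039), a call lost without PBS replicate 1 or 2 or CGRP replicate 2 or 3 (adjusted p from 0.109 to 0.258 by limma-voom) and in 4 of 10 other fits, with DESeq2, library totals, thinned libraries or the single fit over 12 libraries (adjusted p up to 0.273). *Lcn2*, the most counted STAT3 target in neutrophils, was not called there in the main fit (-0.19, SE 0.09, limma-voom adjusted p = 0.391). It was called in 1 of 10 other fits.

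Of 12 genes listed as STAT5 targets, 9 were tested in each cell type, with median log2 fold changes of -0.15 in macrophages and 0.083 in neutrophils. In macrophages, where 7.43% of all genes were called, 2 rose (*Osm*, and *Pim1*, a kinase gene, by 1.62, SE 0.22) and 2 fell (*Bcl2l1*, and *Gadd45g*, a stress-response gene, by 0.90, SE 0.25). *Gadd45g* rose in neutrophils by 0.87 (SE 0.13, limma-voom adjusted p = 0.000376), from 42.7 ± 8.30 to 77.7 ± 4.78 CPM, and the difference between the cell types was itself called (interaction -1.77, SE 0.29, limma-voom adjusted p = 0.000758). Its fall in macrophages was not called without PBS replicate 1 or 2 or CGRP replicate 2 or 3 (limma-voom adjusted p from 0.0778 to 0.241), nor in 1 of 10 other fits, with thinned libraries (adjusted p = 0.138 by limma-voom). *Cish* and *Socs2*, the members on this list, were described above.

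Of 16 genes listed as STAT6 targets, 9 were tested in macrophages, where *Tgm2*, which encodes transglutaminase 2, rose and the transcription factor genes *Pparg* and *Batf3* fell. *Tgm2* rose by 2.19 (SE 0.15) in macrophages and by 1.48 (SE 0.11) in neutrophils, where it was the single one of 12 called. The shares of all genes called were 7.43% in macrophages and 2.53% in neutrophils. *Pparg* fell by 1.76 (SE 0.19) and *Batf3* fell by 2.92 (SE 0.36). *Chil3*, a chitinase-like gene and the most counted STAT6 target in neutrophils, was not called in either cell type. The median log2 fold change of the list was 0.36 in macrophages and -0.12 in neutrophils.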

How the data were processed

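Per the labels, cDNA was primed with oligo-dT and carried unique molecular identifiers, and the submitters' processing notes name STAR, featureCounts, limma and the GRCm38 build. The authors deposited whole-number counts per gene in a table for each cell type, without normalization; the annotation release and the strand setting of counting are not given in the sources used here. Counts were compared with limma-voom (limma 3.58.1, edgeR 4.0.16, R 4.3.3): TMM scaling, the edgeR filter on low counts, a fit per cell type for CGRP and a fit over 12 libraries for the interaction and the cell types, two-sided, with Benjamini–Hochberg adjustment over all genes tested and a threshold of 0.05. DESeq2 1.42.0, other scalings, filters, weights, thinning to the smallest library total and leaving out each library were alternatives. On simulated counts with macrophage depths, 76 of 105 genes changed by 1 on the log2 scale were recovered (72.4%, over 9378 genes). The same was so for 91 of 105 (86.7%, over 9835 genes) with neutrophil depths and 37 of 86 (43.0%, over 10419 genes) for the interaction. The simulation gave all genes the same relative spread beyond counting error, and for the interaction the same level in both cell types. These rates are therefore not those of single members. Among the members, *Socs1*, *Socs2*, *Socs3* and *Cish* lay closest to the limit set by depth (3 counts are 0.826 to 1.5 CPM). Positions are from the GENCODE M21 annotation (it holds 52489 of the 52636 identifiers), and promoters are RefSeq sequences. Named genes are the 10 members, up to 4 called genes with the smallest adjusted p and the most counted gene of each pathway list per cell type, and the 3 genes most like *Stat3*. Some genes of the pathway lists are not reported here. Members, lists and tests were chosen with earlier results of these data known.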

Additional observations from a re-analysis of the deposited data

Results flagged for a closer look

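The response of *Stat3* to CGRP differed between the cell types by the interaction term: its log2 fold change was 0.72 greater in macrophages than in neutrophils (95% interval 0.33 to 1.10, limma-voom adjusted p = 0.0385). The call was close to the threshold: it was lost in 10 of the 12 fits without a library (limma-voom adjusted p from 0.0576 to 0.123) and in 3 of 9 other fits (adjusted p up to 0.175). All 3 CGRP libraries were above all 3 PBS libraries in both cell types. The neutrophil rise alone did not pass the threshold.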

How the results depend on the processing

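The rise of *Stat3* in macrophages was called under every alternative run and the absence of called members in neutrophils held in each of them. In macrophages 2 members were called with no filter on low counts (*Stat3* and *Cish*), 2 with quality weights (*Stat3* and *Jak2*), and 3 in a single fit over 12 libraries. For the interaction 0 members were called with library totals as the scaling, with no filter or with libraries thinned to the smallest total. Between the cell types, with 10 counts required in every library, all 6 members then tested (the STATs, *Jak1* and *Jak2*) were called. The other 4 were not tested, and 2495 genes were higher. In the main fit of that contrast 67.9% of all genes were called. Without 1 library the members called were 1 to 2 in macrophages, 0 to 1 for the interaction and 7 to 10 between the cell types.

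Genes called in neutrophils numbered 248 in the main analysis. The lower ones numbered 64 with library totals and 152 with no filter, and a single fit gave 137 in all (84 higher, 53 lower). In macrophages quality weights gave 1406 (715 higher, 691 lower) and a single fit 1050 (569 lower), against 698. For the interaction quality weights gave 520 (285 higher, 235 lower), against 252. Without 1 library the counts were 138 to 234 in neutrophils (79 to 146 higher, 53 to 97 lower), 347 to 765 in macrophages (163 to 420 higher, 173 to 392 lower) and 149 to 328 for the interaction (73 to 187 higher, 75 to 149 lower). The total was lowest without PBS replicate 1 or 2 in neutrophils and without PBS macrophage replicate 1 in the other 2 comparisons. The cause was not tested. Library totals moved the share of called genes that were higher from 59.7% to 70.1% in neutrophils and from 51.2% to 36.4% for the interaction, and the median interaction over all genes from 0.02 to -0.098; *Stat3* in PBS neutrophils was then at 217 CPM.

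None of the log2 fold changes that turned sign was called. In neutrophils these were *Socs3* (0.02) with library totals and *Nfil3* (0) and *Bcl2l1* (-0.06) after thinning. In macrophages they were *Jak1* (-0.03) with library totals, *Stat6* (0.01) and *Ptpn1* (0) with quality weights, and *Stat5a* (0.03) with *Stat5b* added. For the interaction they were *Stat5a* (-0.1) and *Csf2ra* (-0.01) with library totals, *Socs2* (0.13) and *Socs6* (0) with quality weights and *Stat5a* (-0.15) after thinning. Without 1 library, sign turned in neutrophils *Jak2* (-0.26 to 0.21), *Csf2rb2* (-0.06 to 0.37), *Nfil3* (-0.06 to 0.2), *Bcl2l1* (-0.12 to 0.17), *Socs3* (-0.27 to 0.09) and *Csf2ra* (0 to 0.1); in macrophages *Jak1* (-0.1 to 0.14), *Stat6* (-0.15 to 0.1), *Ptpn1* (-0.28 to 0.13), *Stat5a* (-0.41 to 0.24) and *Stat5b* (-0.03 to 0.26); for the interaction *Socs2* (-1.06 to 0.06), *Stat5a* (-0.21 to 0.45) and *Socs6* (-0.33 to 0).

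The replicate numbers were not shown to pair the libraries. Same-numbered PBS and CGRP libraries had correlations of their deviations of 0.042, -0.013 and 0.14 in neutrophils and 0.059, -0.18 and 0.27 in macrophages, and PBS macrophage replicate 2 correlated best with CGRP replicate 1 (0.39). A fit with the replicate block called 254 genes in neutrophils, 905 in macrophages, 288 for the interaction and 7369 between the cell types, and the members called numbered 0, 1, 1 and 10, as without it.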
